A study of Mus musculus with 8 samples.

Results

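A set of 10 genes of fat cell formation and lipid storage were followed in cultured mouse bone marrow stromal cells given ellagic acid (EA). They were the transcription factor genes Cebpa, Cebpb, Cebpd, Pparg and Ppard, the triglyceride-synthesizing enzyme genes Dgat1 and Dgat2, the lipid droplet coat gene Plin2, the lipase gene Lpl and the fatty acid carrier gene Fabp4. They were matched by symbol, and all 10 had a row among the 21899 genes of the count table. The cells were labelled as mesenchymal stem cells from the femur marrow. In the EA group, 4 libraries came from cells given 10 µM EA, a plant polyphenol, and in the control group 4 libraries came from cells given the solvent DMSO, in both for 48 h. No strain, sex, age, passage or adipogenic cocktail is given for either group. Whether libraries of 1 group stem from different mice or dishes is not said either, so the p-values cover library-to-library spread that may be technical alone.

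Marrow stromal cells can become fat cells as well as bone cells. In the textbook sequence, worked out largely in cultured mouse preadipocytes, C/EBPβ and C/EBPδ appear first and switch on Pparg and Cebpa, which then hold each other on and turn on the genes that take up, carry and store fatty acids. PPARδ is a widely expressed relative of PPARγ that binds fatty acids and is known for driving genes of fat burning. Both PPARs act on DNA together with a retinoid X receptor.

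The libraries held 14112519 to 17390200 reads over all genes. Stromal markers summed to 18942 to 19742 CPM (reads put on a shared library size, here from library totals) in EA and to 16942 to 19418 CPM in control. Most fat cell markers were at the edge of detection, and 3 of 9 had enough reads for the test that follows. The hormone genes Adipoq and Lep had 28 and 42 reads over the 4 EA libraries, and 16 and 28 reads over the 4 control libraries. Plin4 and Lipe had more, at 336 and 166 reads in EA and 560 and 344 in control. The summed level of 9 fat cell markers was 7.40 to 13.2 CPM in EA and 14.4 to 20.7 CPM in control, most of it from Plin4 and Lipe. Macrophages also express Plin2, Lpl, Fabp4 and Pparg. Among 15 macrophage markers, Ptprc had 17 reads in EA and 16 in control, and Adgre1 had 2 in EA and 5 in control. Lyz2 had 2830 reads in EA and 2411 in control, and Cd14 had 533 in EA and 2391 in control. The 15 macrophage markers summed to 53.1 to 57.3 CPM in EA and to 68.5 to 86.0 CPM in control, most of it from Lyz2 and Cd14. For the fat cell and the macrophage sums the exact two-sided permutation p was 0.0286, the smallest that 70 assignments allow, and 0.05 after adjustment over 7 marker lists, which is not under the threshold of 0.05. With libraries scaled by trimmed mean of M values (TMM), as in the tests that follow, these p-values were 0.343 for the fat cell sum, with means of 12.6 CPM in EA and 14.8 CPM in control, and 0.114 for the macrophage sum, with means of 63.6 CPM in EA and 71.4 CPM in control. The 8 bone-forming cell (osteoblast) markers summed to 188 to 212 CPM in EA and 101 to 122 CPM in control by library totals. With TMM the sum averaged 229 CPM in EA and 99.3 CPM in control. The exact permutation p was 0.0286 on both scales (0.05 adjusted with library totals, 0.1 with TMM). Most of this sum came from Runx2, at 159 CPM in EA and 87.3 CPM in control by library totals. In the edgeR test that follows, 4 of the 7 tested osteoblast markers were higher and 2 lower. Among all tested genes 33.1% were higher and 34.2% lower. The stromal sum separated with TMM, averaging 21859 CPM in EA and 16152 CPM in control (exact permutation p = 0.0286, adjusted 0.1), and not with library totals (p = 0.2). Most of the stromal sum came from the collagen genes Col1a1 and Col1a2. It does not stand for each marker, since Thy1 had 7 reads in EA and 12 in control, and Lepr had 69 and 58. Pdgfra had 34986 reads in EA and 9665 in control, whereas Ly6a had 652 in EA and 2336 in control. Of the 12 tested stromal markers, 7 were higher and 2 lower in the edgeR test. The part of these markers in the results was not tested. In bulk RNA, fewer cells of a type and less RNA per cell cannot be told apart.

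Of the 10 genes, 8 had enough reads for the test across 11777 genes, and Cebpa and Pparg did not. Calls were made with edgeR's quasi-likelihood test on TMM-scaled libraries, at a Benjamini-Hochberg adjusted p below 0.05. By this, 4 of the 8 were higher with EA (Ppard, Lpl, Fabp4 and Dgat1) and 2 lower (Dgat2 and Cebpd). Among all tested genes 33.1% were higher and 34.2% lower, 67.2% in either direction, so 6 called of 8 is near the background. The 8 genes had a median log2 fold change of 0.43, against −0.02 for all 11777. The EA and control values did not overlap for 5 of the 8, against 60.6% of tested genes. The genes differed far more in the size and firmness of the change than in whether they were called. The falls of Dgat2 and Cebpd and the rise of Ppard stayed past the threshold under all 12 alternative analyses and without any 1 library, whereas the sign of Dgat1 and Plin2 depended on how libraries were scaled.

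**Figure D1:**
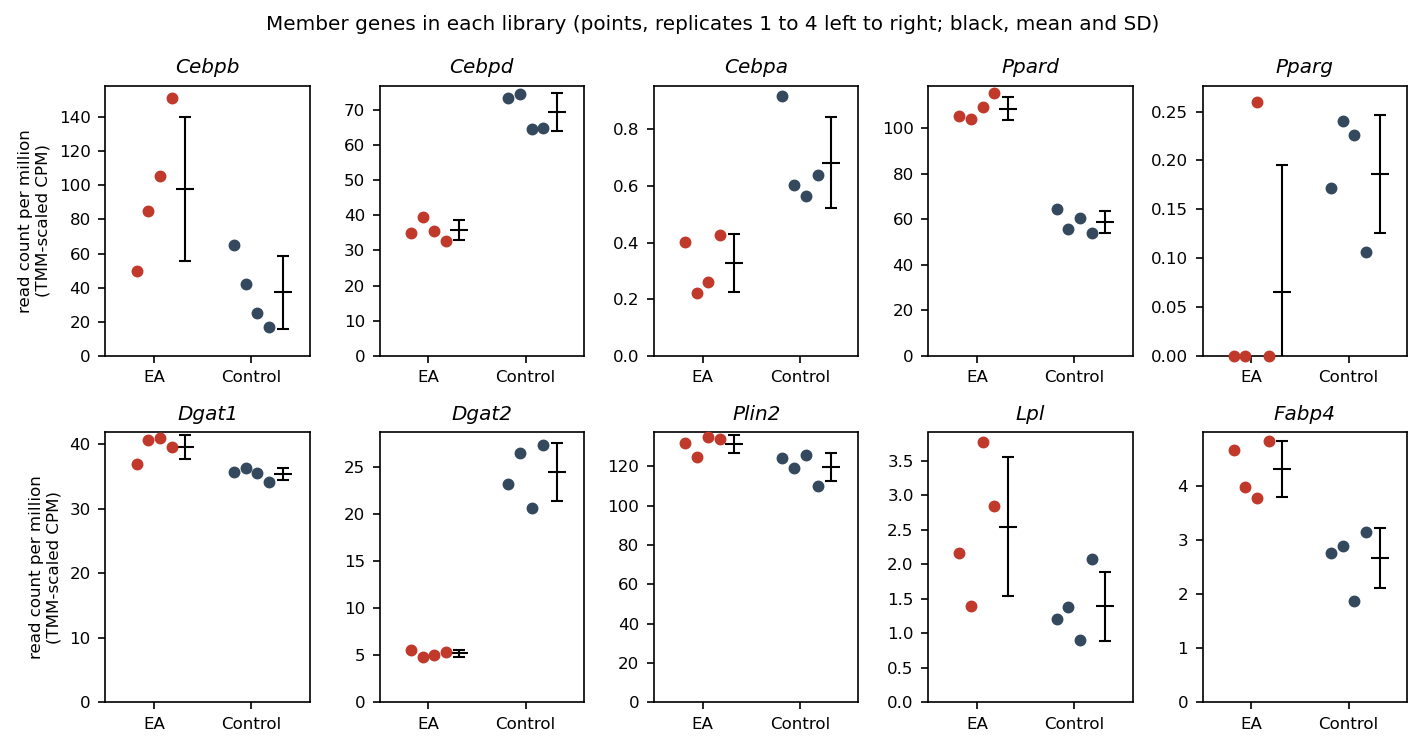
TMM-scaled CPM of the 10 genes in each library, with its own axis for each gene, EA left of control; points are libraries and the black mark is the mean with its SD (n = 4). The points of the 2 groups lie far apart for Dgat2, Cebpd and Ppard, whereas Cebpb is scattered over 49.9 to 151 CPM in EA and 16.8 to 65.2 CPM in control.

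Levels per length were compared with the FPKM values that the authors deposited (reads per kilobase of gene, scaled by the library total). In EA, Cebpb and Plin2 were highest at 57.4 ± 24.7 and 33.0 ± 1.16 FPKM, and their libraries overlapped. Below them came Ppard at 12.7 ± 0.572, Dgat1 at 11.4 ± 0.553, Cebpd at 8.41 ± 0.688 and Dgat2 at 1.49 ± 0.104 FPKM, each apart from its neighbours in every EA library. In control, Plin2 was highest at 38.7 ± 2.41 FPKM, again overlapping Cebpb at 28.2 ± 16.04 FPKM, which also overlapped Cebpd at 21.0 ± 1.59 FPKM (SD, n = 4 each). Dgat1 followed at 13.1 ± 0.377 FPKM and also overlapped Cebpb, whose lowest control library was at 12.6 FPKM. Dgat2 and Ppard overlapped at 9.004 ± 1.10 and 8.88 ± 0.742 FPKM. Fabp4, Lpl, Cebpa and Pparg were all under 1 FPKM in both groups. The deposited gene length of Fabp4, 4489 bases, equals its whole genomic span with introns, so its FPKM is understated and its place in the order is uncertain.

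The early regulators behaved differently from each other. Cebpd (chromosome 16, 15705150 to 15708895, build GRCm39) encodes C/EBPδ, a basic leucine zipper factor that starts adipogenesis and also responds to inflammatory signals. It was at 34.9, 39.6, 35.6 and 32.7 CPM in EA libraries 1 to 4, and at 73.4, 74.5, 64.6 and 64.9 CPM in control libraries 1 to 4. Every EA library was below every control library. Cebpd was 1.94-fold lower with EA (log2 fold change −0.96 ± 0.08, SE derived from the F test, adjusted p = 5.89e-10, edgeR).

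Cebpb (chromosome 2, 167530835 to 167532338) encodes C/EBPβ, the partner that appears with C/EBPδ at the start of the cascade. It was at 49.9, 84.8, 105 and 151 CPM in EA libraries 1 to 4, and at 65.2, 42.3, 25.2 and 16.8 CPM in control libraries 1 to 4. Its highest library was 3.04 times its lowest in EA and 3.89 times in control, and EA library 1 was below control library 1. The log2 fold change of 1.40 ± 0.52 did not pass (adjusted p = 0.0516, edgeR). It passed with DESeq2 (adjusted p = 0.012), limma voom (0.000613) and an edgeR fit without robust shrinkage (0.000791), and did not pass with library totals (log2 fold change 1.03, adjusted p = 0.11). The edgeR test also passed without EA library 1 (log2 fold change 1.61, adjusted p = 0.0376) and without control library 1 (1.82, adjusted p = 0.0256).

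The spread of Cebpb between libraries of the same group set it apart as a measurement. Its CPM rose in order over EA libraries 1 to 4 and fell in order over control libraries 1 to 4. What the library numbers stand for is not given. Its within-group SD was 0.77 on the log2 CPM scale, the second highest among 9112 genes with a mean log2 CPM above 3, whose median SD was 0.11. Above and below it in that order stood Egr1 at 0.89 and Fos at 0.70, rapidly induced transcription factor genes named after their values were seen. Egr1 was at 167, 208, 39.6 and 48.2 CPM in EA libraries 1 to 4, and at 139.5, 86.7, 94.5 and 103 CPM in control libraries 1 to 4. So Egr1 was low in EA libraries 3 and 4, where Cebpb was high, but among the control libraries both genes were highest in library 1. Cebpd, by contrast, had a within-group SD of 0.11 and ranked 4394, and Plin2 and Dgat1 had SDs of 0.07 and 0.06.

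**Figure D2:**
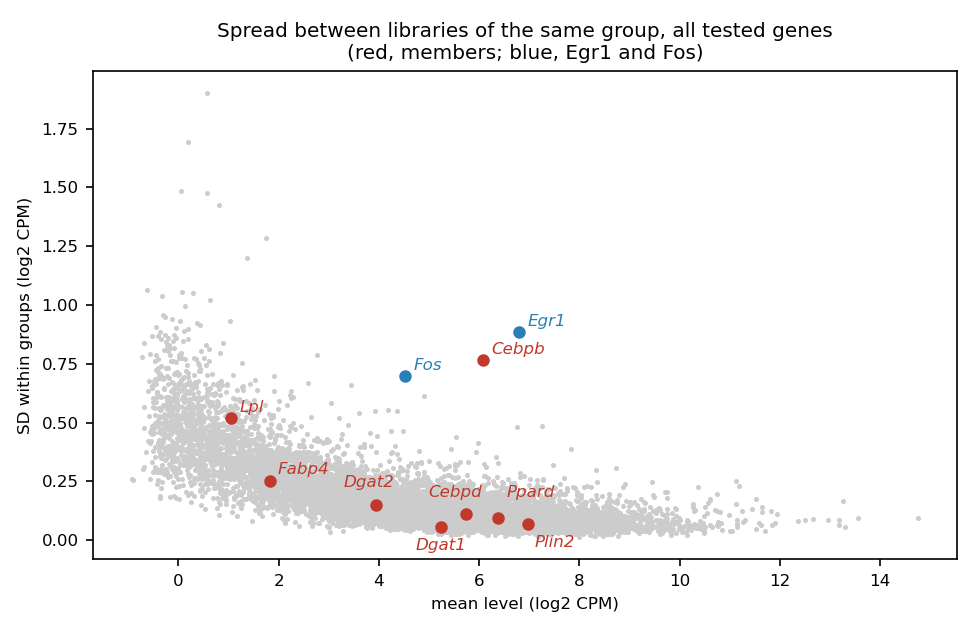
Within-group SD against mean level for all tested genes, both on the log2 CPM scale; each grey point is a gene, red points are the 8 tested genes of the set and blue points are Egr1 and Fos. Cebpb, Egr1 and Fos stand at SDs of 0.77, 0.89 and 0.70, above genes of like level.

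Cebpa (chromosome 7, 34818718 to 34821353) and Pparg (chromosome 6, 115337912 to 115467360), the late pair that fixes the fat cell state, were close to silent. Cebpa had 5, 3, 4 and 6 reads in EA libraries 1 to 4, and 16, 10, 10 and 12 reads in control libraries 1 to 4. The groups did not overlap, and the scaled read ratio of EA to control was 0.477 with an interval of 0.261 to 0.835 (95%, exact, counting error only). In the edgeR fit without a count filter, its log2 fold change of −1.05 ± 0.56 did not pass (adjusted p = 0.121). With 1 library left out Cebpa entered the filtered edgeR fit in 7 of 8 cases, and it was called lower without EA library 4 (log2 fold change −1.20, adjusted p = 0.0438) and without control library 3 (−1.12, adjusted p = 0.0472). Its adjusted p was 0.0502 to 0.122 in the other 5. No EA library held more than 6 reads, so Cebpa entered these fits only through the control libraries, where it was higher. Those calls are thus no separate support for a fall. Pparg had 4 reads in EA, all in library 3, and 13 reads in control, with 2 to 4 in each library. Its ratio of 0.391 had an interval of 0.0929 to 1.27, and a difference was not detectable at this depth (adjusted p = 0.321 without a count filter, edgeR).

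Ppard (chromosome 17, 28451674 to 28520448), the PPAR gene of this set that these cells did express, was at 105, 104, 109 and 116 CPM in EA libraries 1 to 4. In control libraries 1 to 4 it was at 64.7, 56.0, 60.8 and 53.9 CPM. The groups were far apart compared with the spread within each. Ppard rose 1.85-fold (log2 fold change 0.89 ± 0.07, adjusted p = 3.17e-10, edgeR), and by 0.52 on the log2 scale with library totals. In no library did reads per kilobase of Pparg exceed 0.0109 times those of Ppard.

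Start sites of 5 of the 10 genes were in the RefSeq promoter table of build GRCm38.p6, which held none for Cebpd, Lpl, Fabp4, Dgat1 and Dgat2. A set of 4 windows of 250 bases before the start are shown, since they set the silent late genes beside the expressed regulators. All are written 5′ to 3′ on the gene's strand, and capitals mark matches on either strand to the letters named below. The windows are chr6:115421816-115422065 for the most downstream of the Pparg starts listed, chr7:35119043-35119292 for Cebpa, chr17:28232504-28232753 for Ppard and chr2:167688665-167688914 for Cebpb, all on the plus strand.
Pparg, downstream start: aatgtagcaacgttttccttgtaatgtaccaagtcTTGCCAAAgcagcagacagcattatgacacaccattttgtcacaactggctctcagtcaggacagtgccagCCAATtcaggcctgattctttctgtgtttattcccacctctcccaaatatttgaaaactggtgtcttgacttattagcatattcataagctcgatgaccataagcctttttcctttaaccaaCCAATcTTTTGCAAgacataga
Cebpa: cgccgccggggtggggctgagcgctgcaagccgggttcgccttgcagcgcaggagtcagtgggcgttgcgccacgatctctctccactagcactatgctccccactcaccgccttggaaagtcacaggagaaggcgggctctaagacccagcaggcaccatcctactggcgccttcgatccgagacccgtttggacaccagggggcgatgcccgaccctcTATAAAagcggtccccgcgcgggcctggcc
Ppard: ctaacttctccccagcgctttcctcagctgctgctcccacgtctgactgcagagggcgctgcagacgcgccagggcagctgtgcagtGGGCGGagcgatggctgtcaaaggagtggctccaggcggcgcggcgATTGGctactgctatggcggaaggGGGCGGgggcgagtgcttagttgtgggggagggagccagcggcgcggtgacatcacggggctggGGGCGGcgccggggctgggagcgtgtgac
Cebpb: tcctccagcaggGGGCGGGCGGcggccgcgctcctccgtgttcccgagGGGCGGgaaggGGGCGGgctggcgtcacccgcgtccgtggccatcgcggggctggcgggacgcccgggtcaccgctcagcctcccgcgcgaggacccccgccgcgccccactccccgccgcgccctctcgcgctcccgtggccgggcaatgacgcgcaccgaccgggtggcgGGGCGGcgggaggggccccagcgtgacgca

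The letters searched were the C/EBP core TTGCNNAA, the box CCAAT, the TATA box TATAAA, the GC box GGGCGG, the cAMP response element TGACGTCA and the PPAR element, a direct repeat of AGGTCA with 1 base between. The downstream Pparg start held 2 C/EBP cores, at 215 to 208 and 16 to 9 bases before the start, and 2 CCAAT matches, 1 of them 22 to 18 bases before the start. The window of Ppard held 3 GC boxes and 1 CCAAT on the minus strand, that of Cebpb held 5 GC boxes, of which 2 overlap, and that of Cebpa held 1 TATAAA at 30 to 25 bases before the start. A C/EBP core occurs in 9.56% of the 32851 windows of this length, CCAAT in 33.8%, TATAAA in 12.4%, a GC box in 32.7%, TGACGTCA in 1.55% and the PPAR repeat in 0.0335%. No window of the 5 matched genes held either of the last motifs, which says only that these letters are not in it. The Cebpb window was 81.6% G and C, and that of the downstream Pparg start 40.8%, against a median of 52.4% over all windows. The Pparg windows not printed were 82.4% and 63.6% G and C, so Pparg starts lie on both sides of that median. Both also held a GC box, and the window with 63.6% held CCAAT and TATAAA as well. GC boxes were thus not confined to the expressed genes. A match is a description of the letters and not evidence of binding.

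The enzymes that close triglyceride synthesis parted. Dgat2 and Dgat1 encode unrelated proteins that carry out the same last step, joining a fatty acid to diacylglycerol. Dgat2 (chromosome 7, 98802865 to 98831926) was at 5.62, 4.78, 5.07 and 5.40 CPM in EA libraries 1 to 4, and at 23.3, 26.6, 20.7 and 27.4 CPM in control libraries 1 to 4. The highest EA library was far below the lowest control library. Dgat2 was 4.69-fold lower with EA (log2 fold change −2.23 ± 0.12, adjusted p = 1.36e-12, edgeR), the largest change among the 8 tested genes.

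Dgat1 (chromosome 15, 76386215 to 76396153) was at 36.9, 40.7, 41.0 and 39.6 CPM in EA libraries 1 to 4, and at 35.7, 36.3, 35.5 and 34.1 CPM in control libraries 1 to 4. The groups did not overlap on this scale, but the gap was small. Its rise of 1.12-fold (log2 fold change 0.16 ± 0.07, adjusted p = 0.0461, edgeR) was lost when any library other than EA library 1 was left out (adjusted p = 0.0558 to 0.108). With library totals Dgat1 was lower with EA (log2 fold change −0.20, adjusted p = 0.0135).

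A ratio taken within a library does not depend on how libraries are scaled. The ratio of Dgat2 to Dgat1 reads per kilobase was 0.151, 0.117, 0.123 and 0.135 in EA libraries 1 to 4, and 0.647, 0.727, 0.579 and 0.796 in control libraries 1 to 4. On the log2 scale it averaged −2.94 ± 0.17 in EA and −0.55 ± 0.20 in control (SD, n = 4 each). The ratio of Cebpd to Cebpb was 0.281, 0.187, 0.136 and 0.0867 in EA libraries 1 to 4, and 0.452, 0.708, 1.03 and 1.55 in control libraries 1 to 4. Both ratios were lower in every EA library than in any control library. These are descriptions of genes chosen with earlier results known, and no test was made of them.

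**Figure D3:**
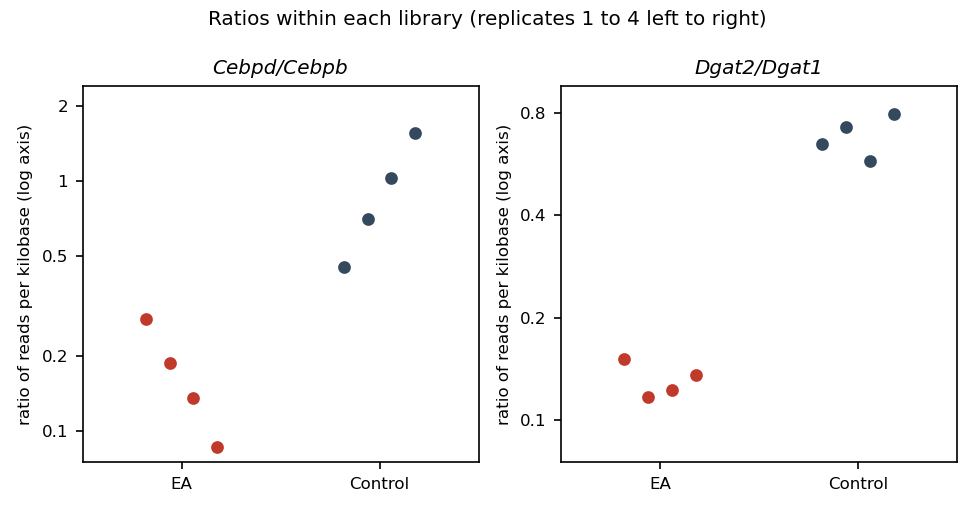
Ratio of reads per kilobase of Cebpd to Cebpb and of Dgat2 to Dgat1 in each library, on log axes, EA left of control; each point is 1 library. The Dgat2 to Dgat1 ratio lies at 0.117 to 0.151 in EA and at 0.579 to 0.796 in control, and the Cebpd to Cebpb ratio is scattered in both groups without overlap.

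Plin2 (chromosome 4, 86566623 to 86588297) encodes perilipin 2, which coats lipid droplets in most cell types and had the most reads of the storage genes. It was at 132.0, 125, 135 and 134 CPM in EA libraries 1 to 4, and at 124, 119, 126 and 110 CPM in control libraries 1 to 4. The groups overlapped. Its log2 fold change of 0.13 ± 0.06 did not pass (adjusted p = 0.0537, edgeR), was past the threshold with RLE scaling (0.14, adjusted p = 0.044) and turned to −0.23 with library totals (adjusted p = 0.00152).

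Lpl and Fabp4, which mature fat cells make in large amounts, were low. Lpl (chromosome 8, 69333143 to 69360100) encodes the lipase that frees fatty acids from circulating lipoproteins. It was at 2.17, 1.40, 3.77 and 2.84 CPM in EA libraries 1 to 4, and at 1.204, 1.38, 0.904 and 2.08 CPM in control libraries 1 to 4. The groups overlapped. Lpl rose 1.83-fold (log2 fold change 0.87 ± 0.31, adjusted p = 0.0186, edgeR), but was not past the threshold without EA library 3 (0.61, adjusted p = 0.116), without control library 3 (0.72, adjusted p = 0.0543) or with library totals (0.51, adjusted p = 0.141).

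Fabp4 (chromosome 3, 10269148 to 10273636) encodes the fatty acid binding protein of fat cells and macrophages. It was at 4.66, 3.97, 3.77 and 4.84 CPM in EA libraries 1 to 4, and at 2.75, 2.89, 1.86 and 3.14 CPM in control libraries 1 to 4. The groups did not overlap on this scale. Fabp4 rose 1.61-fold (log2 fold change 0.69 ± 0.20, adjusted p = 0.00471, edgeR), also without any 1 library, but not with library totals (0.33, adjusted p = 0.138). Fabp5 was the only one of 9 listed relatives with enough reads to be tested. It was 2.996-fold lower with EA, at 76.9 ± 7.76 CPM against 230.3 ± 28.6 CPM in control (adjusted p = 5.68e-11, edgeR).

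**Figure D4:**
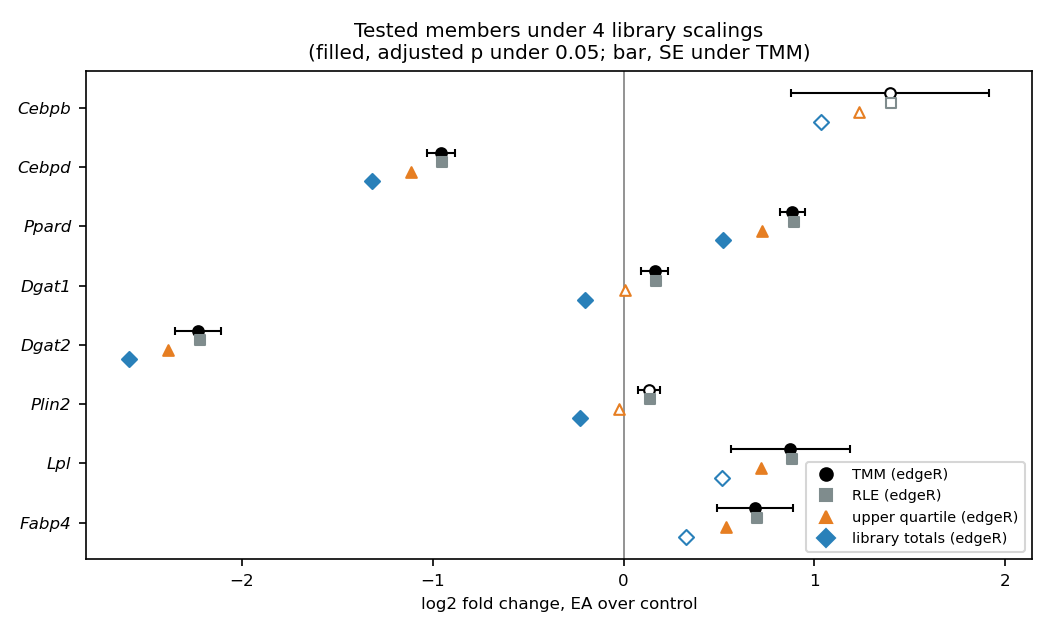
Log2 fold change (EA over control) of the 8 tested genes with TMM, RLE, upper-quartile and library-total scaling in edgeR; filled marks have an adjusted p under 0.05 and bars are the SE under TMM. Dgat2, Cebpd and Ppard keep their sign and their call with each scaling, whereas Dgat1 and Plin2 pass from 0.16 and 0.13 with TMM to −0.20 and −0.23 with library totals.

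Calls for the smaller changes went with the scaling. TMM factors were 0.878 to 0.885 in EA and 1.13 to 1.14 in control, and with library totals in place of TMM the median over all 11777 genes stood at −0.38 on the log2 scale. With library totals, Ppard was the only one of the 8 genes that was higher (16.5% of tested genes were), and Dgat1, Dgat2, Cebpd and Plin2 were lower (61.1% of tested genes were, and 77.6% changed in either direction). With RLE factors 33.7% of tested genes were higher and 33.6% lower (67.3% in either direction), and 5 and 2 of the set. Upper-quartile factors gave 24.0% and 45.3% (69.4%), and 3 and 2 of the set. DESeq2 gave 33.4% and 33.3% (66.7%), and 6 and 2 of the set. A limma fit on log2(FPKM + 1) gave 16.3% and 60.9% (77.2%), and 1 and 4 of the set.

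Among 18 tested of 22 other drivers of adipogenesis and PPAR partners, 8 rose and 4 fell, and the median on the log2 scale was 0.06. With library totals 5 were higher and 10 lower. Beside this and each list that follows stand 33.1% higher and 34.2% lower among all tested genes with TMM, and 16.5% higher and 61.1% lower with library totals. Klf9, a Krüppel-like factor, rose 7.12-fold, at 217 ± 18.5 CPM in EA and 30.6 ± 3.4 CPM in control. Rxra, the retinoid X receptor with which PPARs bind DNA, rose 2.67-fold to 302 ± 11.4 CPM, against 113 ± 7.57 CPM in control, while its relative Rxrb was 1.5-fold lower. Klf15 was at 0.103 ± 0.0846 CPM in EA and 2.06 ± 0.56 CPM in control (log2 fold change −4.16 ± 0.49, adjusted p = 2.54e-07, edgeR). It was almost unread in EA and passed the count filter only through the control libraries, so the size of this change is uncertain. The listed brakes on adipogenesis had 10 of 17 tested genes higher and 4 lower, with a median of 0.80. With library totals 9 were higher and 6 lower, and the median was 0.44. Sox9, a cartilage factor, rose 5.45-fold. Ddit3 and Cebpg, C/EBP relatives that can block other C/EBPs, were 6.71-fold and 2.06-fold lower (adjusted p = 5.17e-17 and 2.25e-07, edgeR). So members of this list moved in both directions, and the drivers had a median of −0.30 with library totals.

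Of 15 tested of 18 other triglyceride synthesis genes, 8 rose, 4 fell and the median was 0.16, against 4 higher, 8 lower and a median of −0.20 with library totals. The fatty acid activating enzyme gene Acsl4 rose 2.22-fold and the phosphatidate phosphatase gene Lpin2 1.76-fold. Acsl1 was 1.51-fold lower and Gpam, which starts glycerolipid synthesis in mitochondria, was 1.2-fold lower. None of the 15 was as low as Dgat2 on the log2 scale, and the lowest was at −0.60. Of 17 lipid droplet genes, 15 had a row under the listed symbol, and Ldaf1 and Spart had none. Of the 8 that were tested, 2 rose, 2 fell and the median was −0.11. With library totals 1 was higher and 7 lower, with a median of −0.47, and with upper-quartile factors 1 was higher and 5 lower. Hsd17b11 rose 2.15-fold. Rab18 was 1.14-fold higher (log2 fold change 0.18, adjusted p = 0.0206, edgeR), and turned to −0.18 with library totals. Its call was lost with upper-quartile factors (adjusted p = 0.723, edgeR), without EA library 1 (0.0716) and without control library 1 (0.073). Hilpda, a hypoxia-induced inhibitor of lipolysis, was 1.94-fold lower and the coat gene Plin3 1.34-fold lower.

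Lipolysis genes had 3 of 5 tested genes lower and none higher, with a median of −0.43. With library totals all 5 were lower, with a median of −0.80. Pnpla2, which starts the breakdown of stored triglyceride, was at 19.1 ± 2.08 CPM in EA and 27.4 ± 2.05 CPM in control, 1.43-fold lower (adjusted p = 7.12e-05, edgeR). The lysosomal lipase gene Lipa was 1.21-fold lower, and the hormone-sensitive lipase gene Lipe, also a fat cell marker, was at 2.99 ± 0.788 CPM in EA and 4.89 ± 0.549 CPM in control.

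Of 7 tested of 17 genes that process, carry or clear LPL, 1 rose, 4 fell and the median was −0.20. With library totals 1 was higher and 6 lower, with a median of −0.56, and with upper-quartile factors the median was −0.36. Furin, a protease that can cleave LPL, rose 3.29-fold, and Lrp1, a large lipoprotein receptor, was 1.35-fold lower. Angptl4, a secreted LPL inhibitor and a PPAR target, was 3.21-fold lower at 1.41 ± 0.526 CPM in EA and 4.54 ± 0.523 CPM in control (adjusted p = 3.98e-06, edgeR). Of 16 tested of 21 PPAR target genes, 9 rose, 4 fell and the median was 0.28. With library totals 4 were higher and 8 lower, and the median was −0.080. Cpt1a, which admits fatty acids to mitochondria, rose 2.73-fold. Acot2, a mitochondrial thioesterase gene, fell along with Angptl4 and was 2.53-fold lower.

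Of 17 mature fat cell genes only 5 had enough reads to be tested, of which 2 rose, 1 fell and 2 did not pass. Cfd, the adipsin gene, was at 1.04 ± 0.447 CPM in EA and 0.469 ± 0.189 CPM in control (adjusted p = 0.0192, edgeR). Cfd had only 58 reads in EA and 33 in control, and passed the count filter through the EA libraries, where it was higher. Without EA library 4 its log2 fold change was 0.80 (adjusted p = 0.119, edgeR), and without control library 3 it was 0.93 (0.062). Car3 rose 1.64-fold (log2 fold change 0.71, adjusted p = 0.0283, edgeR), and Lipe was the gene of this list that fell. The Car3 call was lost with upper-quartile factors (adjusted p = 0.0706, edgeR) and without EA library 3, where the log2 fold change was 0.46 (0.146). It was also lost without EA library 4 (0.0611) and without control library 1 (0.074), 2 (0.0663) or 3 (0.0599). With library totals neither Cfd nor Car3 was past the threshold (adjusted p = 0.0885 and 0.25, edgeR).

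**Figure D5:**
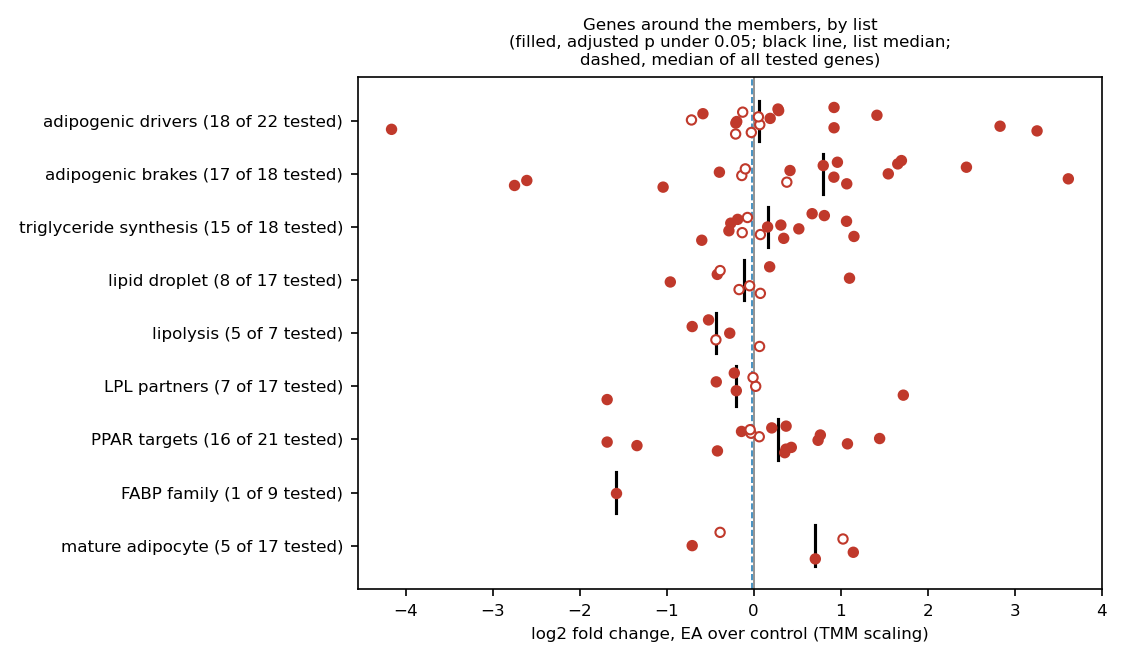
Log2 fold change (EA over control, TMM scaling) of the tested genes in 9 lists around the 10 genes; each point is a gene, filled where the adjusted p was under 0.05, black lines are list medians and the dashed line is the median of all tested genes. Genes lie on both sides of 0 in most lists, and no lipolysis gene is both filled and above 0.

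The genes whose values over the 8 libraries lay closest to those of Dgat2, each centred on its own mean, were Nrg1, Dyrk4 and Slc26a2. Their root mean square differences from Dgat2 were 0.12, 0.14 and 0.15 on the log2 CPM scale. Nrg1, which encodes the growth factor neuregulin 1, was at 27.7 ± 0.81 CPM in EA and 143 ± 19.5 CPM in control. The kinase gene Dyrk4 was at 2.49 ± 0.156 CPM in EA and 10.3 ± 1.32 CPM in control. Slc26a2, a sulfate transporter gene, was at 77.7 ± 5.003 CPM in EA and 312 ± 62.7 CPM in control.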

How the data were processed

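Poly(A) RNA of 4 EA and 4 control libraries was sequenced. The authors deposited raw read counts per gene and FPKM values; per the submitters' processing notes cutadapt 1.15, HISAT2 2.0.5 and GRCm39 were used. How reads were assigned to genes, with or without strand and on which annotation, is not given in the sources used here. Recomputing the deposited FPKM values above 0 from counts, gene lengths and library totals gave a largest relative deviation of 5.11e-15.

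The count table was tested with edgeR 4.0.16 under R 4.3.3 (TMM factors, default count filter by group, robust quasi-likelihood F test, no covariates), adjusted over 11777 genes. CPM values use TMM scaling unless library totals are named, and within-group SDs use log2 CPM with a prior count of 2. Totals of 14112519 to 17390200 reads set the precision, and intervals cover counting error only. The 10 genes and the lists were chosen with earlier results of these data known. Besides the 10 genes, up to 2 rising and 2 falling called genes of each list were named by p, with the 3 genes nearest in profile to the 1 of the 10 genes with the smallest p; other names are marked, and 2 genes that the rule picks are not reported here. Other settings tried were scaling by RLE, upper quartile or library totals, dropping the filter or asking for CPM above 1 in each of the 8 libraries, DESeq2 1.42.0, and limma 3.58.1 on counts (voom) or on log2 FPKM after adding 1 or 0.1. A threshold of 0.01, a replicate block and fits without each library were also run, and a non-robust fit was added after seeing the data. The steps were tested on simulated counts in which few genes changed, in both directions. In the data 67.2% of tested genes were called, so that simulation cannot speak to the choice of scaling. Figures were drawn with matplotlib 3.10.9.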

Additional observations from a re-analysis of the deposited data

Results flagged for a closer look

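In 100 groups of 4 values, the highest or lowest library was checked for standing apart from the other 3, and 9 groups did by Dixon's test at the 95% level, which chance alone gives in about 1 of 20 groups. Pparg had its only EA reads in library 3, at 0.26 CPM, where the other EA libraries were at 0, and the ratio of Pparg to Ppard reads per kilobase was likewise 0.00605 there. The ratio of Cebpa to Cebpb was 0.00459 in EA library 1, above 0.00141 to 0.00161 in the others. Among the genes around the set, Furin was at 313 CPM in EA library 1, Cfd at 1.71 CPM in EA library 4, Klf9 at 25.5 CPM in control library 3 and Car3 at 3.94 CPM in control library 4. The summed macrophage markers were lowest in library 4 of both groups, at 53.1 CPM in EA and 68.5 CPM in control. None of these libraries was left out of the results given. The spread of Cebpb did not meet this criterion, since its 4 values were spread out in both groups.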

How the results depend on the processing

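Dgat2, Cebpd and Ppard kept their direction and their call under each of 12 alternatives, at log2 fold changes of −2.59 to −2.00, −1.32 to −0.95 and 0.48 to 0.89. With library totals 1940 genes were higher and 7196 lower, and of the 10 genes 1 was higher and 4 lower; Lpl (0.51) and Fabp4 (0.33) were no longer past the threshold, and Dgat1 (−0.20), Plin2 (−0.23) and Rab18 (−0.18) reversed, as did the medians of adipogenic drivers (−0.30), triglyceride synthesis (−0.20) and PPAR targets (−0.080). On log2(FPKM + 1) the counts were 1924 and 7170 genes, and 1 and 4 of the 10; Lpl was at 0.076, Fabp4 0.15, Dgat1 −0.19, Plin2 −0.22, Rab18 −0.16, and the medians −0.21, −0.19 and −0.079, with −0.055 over the 10 genes. On log2(FPKM + 0.1) they were 1922 and 7179 genes, and 1 and 4 of the 10, with Lpl at 0.31, Fabp4 0.31, Dgat1 −0.20, Plin2 −0.23, Rab18 −0.17, and medians of −0.30, −0.20 and −0.080. FPKM values carry library totals as their scale. Upper-quartile factors gave Dgat1 0.0050, Plin2 −0.026 and a driver median of −0.093. Dgat1 was not past the threshold without a filter (0.16) or with CPM above 1 in all libraries (0.15), where the median of mature fat cell genes turned to −0.40 with fewer genes tested. Plin2 passed with RLE (0.14), DESeq2 (0.14) and voom (0.13), and Cebpb passed with DESeq2 (1.40), voom (1.49) and the non-robust fit (1.40). At an adjusted p under 0.01, 2 of the 10 were higher, without Lpl (0.87) and Dgat1 (0.16). The cause was not tested.

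Same-numbered libraries deviated from their group means with correlations of −0.02 to 0.03, and 0 of 8 libraries correlated best with their own number, so the numbers were not taken as pairs. A replicate block gave 3834 higher and 3960 lower genes, and 3 and 2 of the 10, with Dgat1 (0.16) not past the threshold (adjusted p = 0.0713); no other of the 8 tested genes changed its call.

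Leaving out 1 library gave 3721 to 4012 higher and 3794 to 3957 lower genes, and 2 to 5 and 2 to 3 of the 10. The log2 fold change ranged from 1.11 to 1.82 for Cebpb, −1.01 to −0.91 for Cebpd, 0.85 to 0.94 for Ppard, 0.61 to 1.14 for Lpl, 0.56 to 0.79 for Fabp4, 0.15 to 0.20 for Dgat1, −2.30 to −2.17 for Dgat2 and 0.10 to 0.16 for Plin2. Without EA library 3, 2 of the 10 were higher, and the third lower gene without EA library 4 or control library 3 was Cebpa. Cebpa entered those fits only through the control libraries. Depth limits Cebpa and Pparg most, with 18 and 4 reads in EA and 48 and 13 in control.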

Other observations

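Among PPAR targets with too few reads to be tested, chosen after their values were seen, Ucp3 had 40 reads over the 4 EA libraries and 2 over the 4 control libraries, Ucp2 had 39 in EA and 13 in control, and Cpt1b had 3 in EA and 24 in control. The first pair encode mitochondrial uncoupling proteins, and Cpt1b is the muscle relative of Cpt1a. The droplet coat gene Plin1, made mainly by fat cells, had 29 reads over the EA libraries and 26 over the control libraries. Plin5, a coat gene of fat-burning tissues, had 6 reads in EA and 15 in control.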
